A study of Mus musculus with 6 samples.

Results

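The mitochondrial ribosomal protein genes were taken as every gene whose only annotation symbol on a probe begins with Mrpl or Mrps followed by a digit. The rule gave 71 genes of 22180 that a probe names alone, 43 of the large subunit (Mrpl) and 28 of the small subunit (Mrps). Each gene was read from its probe with the highest mean over the 6 arrays. A gene entered the comparison when that mean was at or above 2.65 on the log2 scale, the median of all probes, which left 70 members among 13493 genes. Mrps14, a small-subunit protein, was the member below that level, with values from 1.75 to 2.94 on the 6 arrays. A further 7 genes, Mrpl30, Mrpl33, Mrpl41, Mrpl43, Mrpl44, Mrpl53 and Mrps6, were named only on probes that also carry another gene's symbol and were not compared.

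Liver RNA came from male C57BL/6 mice that were 8 weeks old when they were acclimatized. The group called vehicle here was given vehicle for 7 days, and the group called Vascepa was given Vascepa for 7 days. Vascepa is icosapent ethyl, a purified form of eicosapentaenoic acid, an omega-3 fatty acid. Both groups then had 6 weeks of high-fat diet, so the comparison asks how high-fat-fed livers differed after earlier Vascepa. None of the 6 arrays came from a group without the diet. Each group had 3 arrays. The labels used here give no dose or route and do not say that the samples of a group were separate animals, so a p-value here reflects how these samples scatter, and that scatter may be purely technical.

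Mitochondria carry their own ribosomes, which translate the few proteins encoded by mitochondrial DNA, all of them subunits of the respiratory chain and ATP synthase. The RNA of these ribosomes is made inside the mitochondrion, while every protein of both subunits is encoded in the nucleus, made in the cytosol and imported. The small subunit holds the messenger RNA and decodes it. The large subunit joins the amino acids and passes the new chain out through a tunnel to the inner membrane. Some of the proteins have relatives in bacterial ribosomes and others are found only in mitochondria. Liver is rich in mitochondria, and its hepatocytes use the respiratory chain to burn fatty acids.

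Values are log2 expression values as deposited, so a difference of 1 is a doubling. The hepatocyte markers fixed for the tissue check (albumin, apolipoproteins, fibrinogen chains and others) were above the intensity level in 15 of 15 cases with a probe. Pairs of arrays correlated across genes at r from 0.906 to 0.986, and Vascepa replicate 3 stood farthest from the others, with a mean r of 0.938 against 0.959 to 0.973 for the remaining arrays. The mean log2 level of 67 small nucleolar RNAs, short guide RNAs of the nucleolus, was 5.96, 6.86 and 6.22 on vehicle replicates 1, 2 and 3. It was 5.82, 6.99 and 7.54 on Vascepa replicates 1, 2 and 3. These values are given here because the mitochondrial ribosomal protein genes ran in nearly the same order over the arrays.

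No mitochondrial ribosomal protein gene differed between the groups by the test, and the members lay on both sides of zero. Of the 70 members, 38 were higher and 32 lower in Vascepa livers, with a median log2 difference of 0.0090, Vascepa minus vehicle. Relative to each gene's vehicle mean, the median of the members had a pooled SD of 0.31 between arrays of a group. A median difference this small therefore does not show that the set was level between groups. Across all 13493 genes tested 39.9% were higher, and the median difference was −0.063. The members ranged from −0.56 in Mrps31, of the head of the small subunit, to 0.61 in Mrpl27, a relative of the bacterial protein that reaches the site of peptide bond formation. The limma fit over all genes called 0 of 70 members at an adjusted p under 0.05, where 0% of all genes were called. At an unadjusted p under 0.05 it again held 0 of 70, where 362 genes, 2.68%, passed. The smallest unadjusted p of a member was 0.067 (limma, adjusted p = 0.976).

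A p above the threshold does not show that the levels were equal, and the intervals give the range of differences compatible with these arrays. They do not say which differences the test would have called. Over all genes the differences ran from −1.87 to 1.56, and 0 of 13493 had an adjusted p under 0.05. The standard error (SE) of a member's difference ran from 0.16 to 0.61, with a median of 0.26 against 0.23 over all genes. The 95% interval lay between −1 and 1 for 56 of 70 members, 80.0%, beside 78.7% of all genes. For these members a doubling or a halving in either direction lay outside the interval. The widest interval, −1.51 to 1.29, belonged to Mrpl32, described below.

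**Figure D1:**
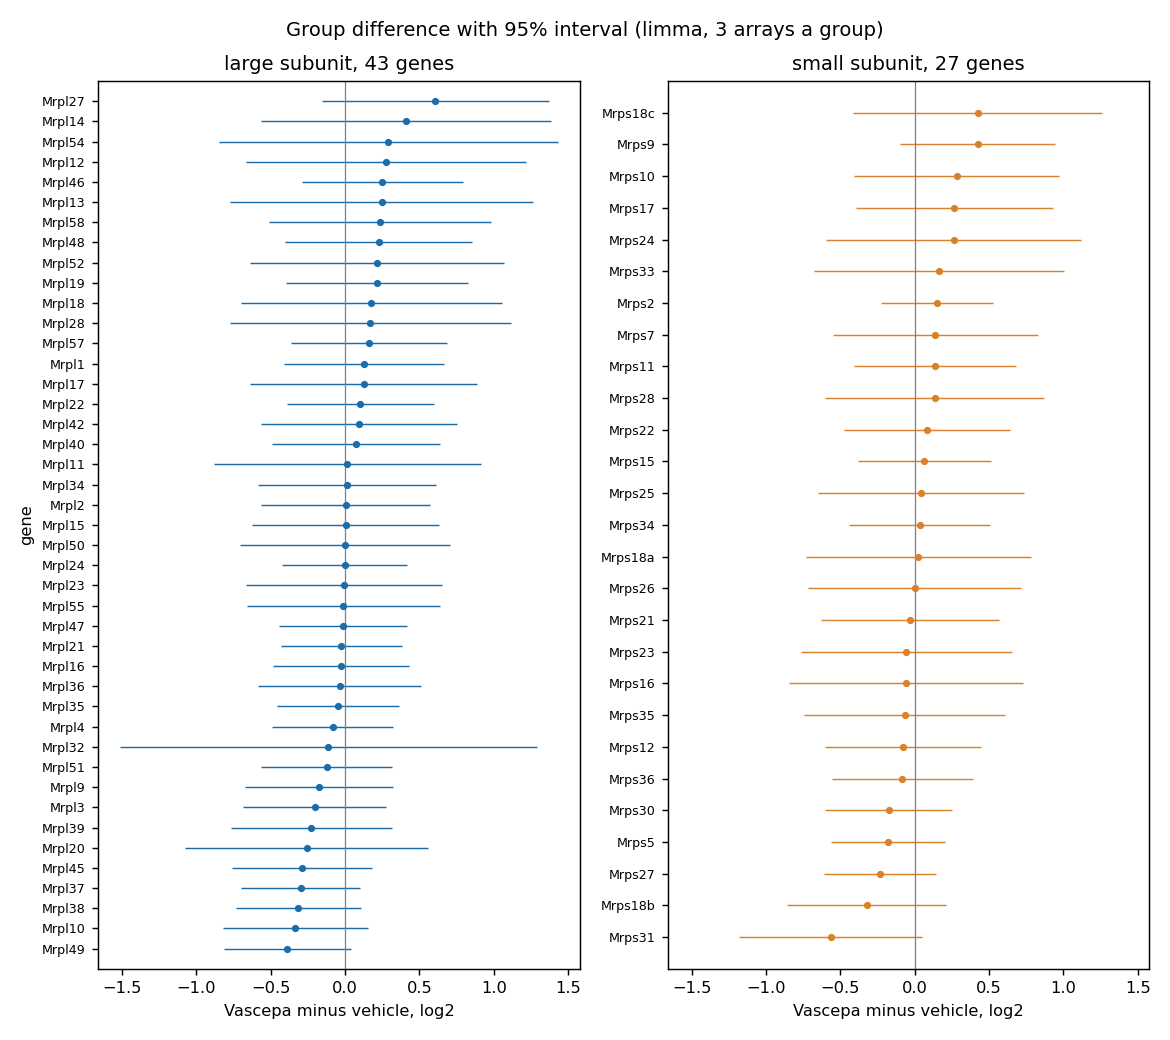
Difference between Vascepa and vehicle livers on the log2 scale for each of the 43 large-subunit and 27 small-subunit genes tested; points are the fitted differences and bars the 95% intervals of limma with 3 arrays a group. Every interval includes 0, the lowest point is Mrps31 at −0.56 and the highest is Mrpl27 at 0.61.

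In the large subunit the members with the smallest p lay on both sides of zero. Mrpl49, a protein without a bacterial relative, read 6.18, 6.37 and 6.46 in vehicle livers and 5.85, 6.15 and 5.85 in Vascepa livers (−0.39 ± 0.18, SE). All 3 Vascepa values lay under the lowest vehicle value. Mrpl27 read 3.41, 3.78 and 3.67 in vehicle livers and 3.67, 4.05 and 4.97 in Vascepa livers (0.61 ± 0.33, SE). Its groups overlapped, and Vascepa replicate 3 alone was far above the rest; without that array the difference was 0.24.

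Mrpl38, a protein of the central protuberance at the top of the large subunit, read 6.75, 7.03 and 6.85 in vehicle livers and 6.73, 6.52 and 6.44 in Vascepa livers (−0.31 ± 0.18, SE). Mrpl37, another protein found only in mitochondria, read 6.53, 6.66 and 6.52 against 6.36, 6.34 and 6.10 (−0.30 ± 0.17, SE). In both genes every Vascepa array was under every vehicle array. Mrpl10, which anchors the stalk where translation factors bind, read 6.75, 7.13 and 7.05 against 6.49, 6.50 and 6.95 (−0.33 ± 0.21, SE). Mrpl45, which tethers the ribosome to the inner membrane, read 5.82, 6.29 and 5.97 against 5.57, 5.94 and 5.69 (−0.29 ± 0.20, SE). The groups of Mrpl10 and Mrpl45 overlapped, and a dimmer probe of Mrpl10 gave a difference of 0.40. None of these 6 genes passed (limma, adjusted p = 0.976 for each).

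In the small subunit the member with the smallest p was also the one with the lowest difference. Mrps31 read 6.40, 6.33 and 6.55 in vehicle livers and 6.27, 6.01 and 5.30 in Vascepa livers (−0.56 ± 0.27, SE). Its vehicle values were close together, the Vascepa values were spread, and the groups did not overlap. Without Vascepa replicate 3 the difference was −0.28. Mrps9, a protein of the head with a bacterial relative, read 5.17, 5.51 and 5.29 against 5.35, 5.94 and 5.95 (0.42 ± 0.23, SE). Vascepa replicates 2 and 3 lay above all vehicle arrays and Vascepa replicate 1 lay within them.

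Mrps27, a pentatricopeptide repeat protein that binds RNA, was steady within groups, at 4.84, 4.91 and 4.90 against 4.73, 4.61 and 4.62 (−0.23 ± 0.16, SE). Mrps5, which lies where the messenger RNA enters, read 6.35, 6.34 and 6.33 against 6.28, 6.12 and 6.08 (−0.18 ± 0.17, SE). In both genes the Vascepa arrays were all lower. Mrps18b and Mrps18c are paralogs that lay in opposite directions. Mrps18b read 6.98, 7.41 and 7.04 against 6.69, 7.20 and 6.57 (−0.32 ± 0.23, SE), and Mrps18c 3.25, 3.98 and 3.74 against 3.29, 4.37 and 4.58 (0.42 ± 0.36, SE). Leaving out Vascepa replicate 3 gave 0.17 for Mrps18c, and leaving out Vascepa replicate 1 gave 0.82. The groups of both overlapped, and none of these 6 small-subunit genes passed (limma, adjusted p = 0.976 for each).

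**Figure D2:**
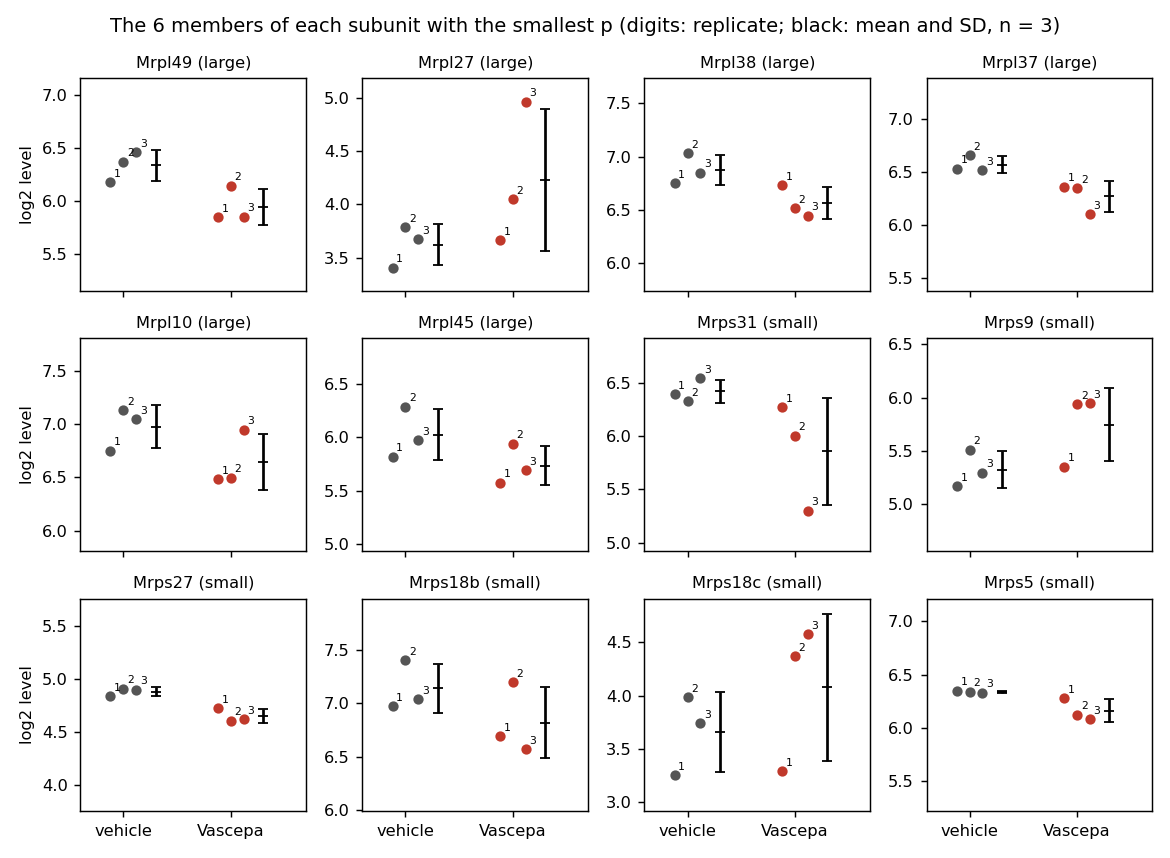
Log2 level of the 6 members of each subunit with the smallest p; digits give the replicate, and black marks give the mean and SD of 3 arrays. All panels span the same width in log2 units: Mrpl49, Mrpl38, Mrpl37, Mrps31, Mrps27 and Mrps5 show Vascepa arrays all under vehicle arrays, and the other 6 panels show overlap.

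The groups did not overlap in 7 of 70 members, beside 8.24% of all genes tested. In 6 of the 7 the Vascepa arrays were lower (5.11% of all genes) and in 1 they were higher (3.13% of all genes). The higher one was Mrps2, a small-subunit protein with a bacterial relative, named here after its values were seen. It read 4.71, 4.79 and 4.78 in vehicle livers and 4.97, 4.90 and 4.85 in Vascepa livers (0.15 ± 0.16, SE; limma, adjusted p = 0.976). A difference larger than the range within either group was seen in 5 of 70 members, Mrpl37, Mrpl38, Mrpl49, Mrps2 and Mrps27, against 3.77% of all genes.

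Large and small subunit genes lay close together in the comparison of groups. In the large subunit 23 of 43 were higher in Vascepa livers, with a median difference of 0.0040 and a range from −0.39 to 0.61. In the small subunit 15 of 27 were higher, with a median of 0.033 and a range from −0.56 to 0.42. The large-subunit median minus the small-subunit median was −0.029. Members of a subunit are not replicates, so the gap is a description. The symbols are not always true to the structure: the proteins of Mrps30 and Mrps18a sit in the large subunit, and that of Mrps36 is a part of an enzyme complex of the citric acid cycle. With these genes placed by structure the gap was −0.049, between medians of 0.0040 over 45 genes and 0.053 over 24.

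The subunits also deviated alike from array to array. Each gene was set to its own vehicle mean, since probes of different genes cannot be compared in level, so only the deviations of single arrays carry information. The large-subunit median was then −0.23, 0.22 and −0.00085 on vehicle replicates 1, 2 and 3, and −0.37, 0.084 and 0.34 on Vascepa replicates 1, 2 and 3. The small-subunit median was −0.25, 0.24 and 0.024 in vehicle livers and −0.33, 0.14 and 0.41 in Vascepa livers. The gap between subunits was 0.014, −0.017 and −0.025 on vehicle replicates 1, 2 and 3. It was −0.032, −0.052 and −0.069 on Vascepa replicates 1, 2 and 3, lower on each Vascepa array than on any vehicle array, which was not tested. The medians themselves spread far more between arrays of a group, with a pooled SD of 0.30 in the large and 0.32 in the small subunit (3 arrays a group). That SD includes the shift shared by both subunits, which cancels in the gap, so it is not the spread of the gap.

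**Figure D3:**
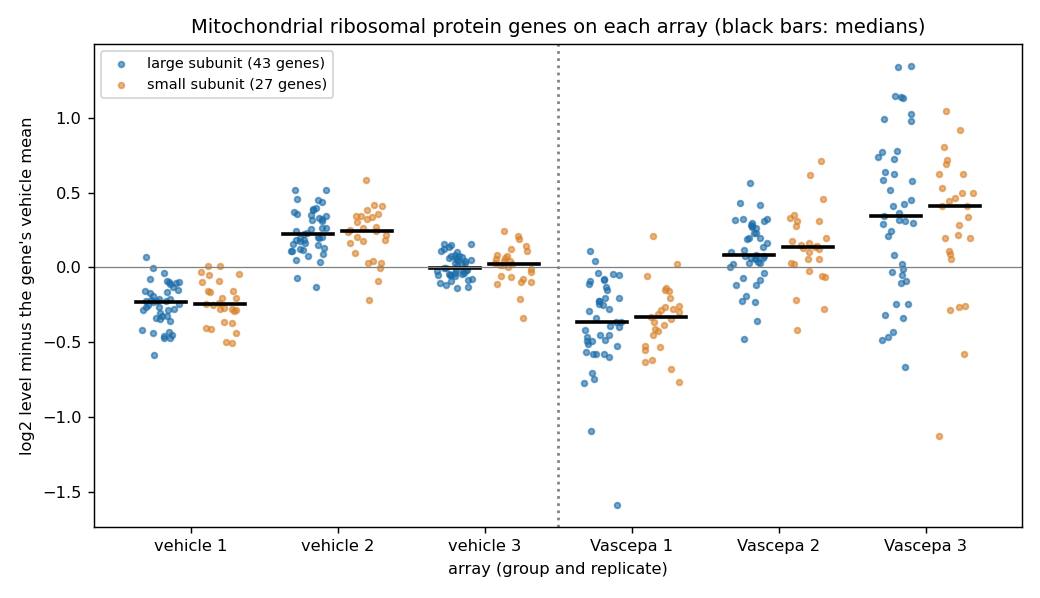
Log2 level of each of the 70 tested members on each array, minus the gene's vehicle mean, with large-subunit genes in blue, small-subunit genes in orange and black bars at the medians. The bars of both subunits lie together on every array, lowest on Vascepa replicate 1 (−0.37 and −0.33) and highest on Vascepa replicate 3 (0.34 and 0.41).

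Most of these genes ran in a common order over the arrays of each group. Vehicle replicate 1 was the lowest vehicle array for 60 of 70 members (35% of all genes), and vehicle replicate 2 the highest for 60 of 70 (35.6% of all genes). Among Vascepa arrays, replicate 1 was the lowest for 56 of 70 members (32.9% of all genes) and replicate 3 the highest for 46 of 70 (32.8% of all genes). All 4 positions held at once in 38 of 70 members, 54.3%, beside 10.3% of all genes, and in 24 of 43 large-subunit and 14 of 27 small-subunit genes. These arrays were singled out after the values were seen, and the counts are descriptions without a test. Small nucleolar RNA levels were likewise lowest on replicate 1 and highest on vehicle replicate 2 and Vascepa replicate 3; their part in the pattern was not tested.

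The distance between the low and the high array of each group, chosen from the values, is given here as a description. From vehicle replicate 1 to replicate 2 the median member differed by 0.46, and 65 of 70 were higher on replicate 2. Over all genes the same median was −0.022, and 6462 of 13493 were higher. From Vascepa replicate 1 to replicate 3 the median member differed by 0.77, and 58 of 70 were higher on replicate 3. Over all genes the median of this swing was −0.11, and 5878 of 13493 were higher. The median of the members was 0.67 in the large and 0.81 in the small subunit. More than 1 log2 unit separated these Vascepa arrays in 22 of 70 members (6.03% of all genes). The within-group SD was larger in Vascepa livers, with a median over members of 0.40 against 0.24 in vehicle livers (0.32 and 0.21 over all genes).

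**Figure D4:**
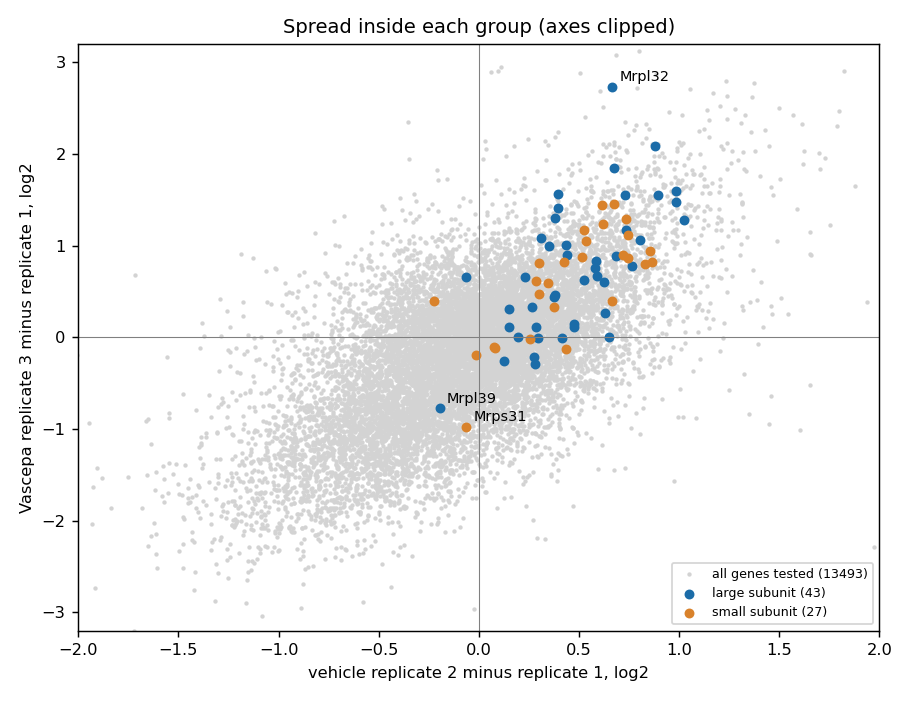
Vascepa replicate 3 minus replicate 1 (vertical) against vehicle replicate 2 minus replicate 1 (horizontal), both in log2 units, for all 13493 genes tested in grey and for large-subunit (blue) and small-subunit (orange) members. The grey cloud itself slopes upward, and most members lie up and to the right of its centre, with Mrpl32 highest at 2.73 and Mrps31 lowest at −0.98; the axes are clipped.

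The sign of the whole set therefore depended on which arrays were counted. Without Vascepa replicate 3, 12 of 70 members were higher in Vascepa livers, with medians of −0.13 in the large and −0.14 in the small subunit. Without vehicle replicate 1, 21 of 70 were higher, with medians of −0.10 and −0.11. Leaving out Vascepa replicate 1 turned it the other way, with 54 of 70 higher and medians of 0.25 and 0.24, and leaving out vehicle replicate 2 gave 53 of 70. The members at an unadjusted p under 0.05 went from 0 to 8 without Vascepa replicate 1, where 2018 genes passed in all, and none of the 8 held after adjustment (limma, lowest adjusted p = 0.306). With the small nucleolar RNA level as a covariate 9 of 70 members were higher and 61 lower, with medians of −0.17 and −0.16. Centring each array on its median left 28 of 70 higher, and normalizing the quantiles again left 54 of 70. With limma's array weights, which put most of the weight on Vascepa replicate 2, 4100 of 13493 genes and 10 of 70 members had an adjusted p under 0.05, among them Mrpl10, Mrpl27, Mrpl38, Mrps9, Mrps18c, Mrps27 and Mrps31.

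The gene with the widest swing was Mrpl32, named after its values were seen. Its protein becomes active only after a mitochondrial inner-membrane protease trims it. It read 5.67, 6.33 and 6.01 in vehicle livers and 4.41, 6.11 and 7.15 in Vascepa livers (−0.11 ± 0.61, SE; limma, adjusted p = 0.987). The Vascepa values ran from far under to far above the vehicle values. Mrpl54, also chosen after its values were seen, read 5.92, 6.80 and 6.33 against 5.61, 6.62 and 7.69 (0.29 ± 0.49, SE; limma, adjusted p = 0.976). Its swing of 2.08 between Vascepa replicates 1 and 3 was the next after the 2.73 of Mrpl32.

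A smaller number of members ran against the array order. On Vascepa replicate 3, 11 of 70 members had their lowest Vascepa value (47.2% of all genes). There 12 of 70 were lower than on replicate 1 (7602 of 13493 over all genes). The steepest were Mrps31, at −0.98 from replicate 1 to 3, and Mrpl39, at −0.77. Mrpl39, a protein found only in mitochondria and named after its values were seen, read 7.62, 7.42 and 7.61 in vehicle livers and 7.66, 7.43 and 6.88 in Vascepa livers (−0.23 ± 0.23, SE; limma, adjusted p = 0.976). Without Vascepa replicate 3 its difference was −0.0056. Mrpl37, Mrpl38, Mrps5, Mrps18b and Mrps27 also lay lower on Vascepa replicate 3, at −0.26, −0.29, −0.20, −0.13 and −0.11. Of the 6 members that lay lower in Vascepa livers without overlap, 5 were among these 12, and the exception was Mrpl49, which was level between these arrays.

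By place in the ribosome, the 3 stalk genes had the widest median swing from Vascepa replicate 1 to 3 of the role lists examined, at 1.55. The stalk is the arm that recruits translation factors, and Mrpl12 forms its tip. Mrpl12 read 6.38, 7.27 and 6.80 in vehicle livers and 6.24, 7.23 and 7.80 in Vascepa livers (0.27 ± 0.41, SE). Mrpl11, of the stalk base, read 5.43, 6.16 and 5.77 against 5.01, 5.82 and 6.56 (0.016 ± 0.39, SE). In both genes replicate 1 was the low array of its group, and the groups overlapped. They swung by 1.56 and 1.55 from Vascepa replicate 1 to 3, while the remaining stalk gene, Mrpl10, swung by 0.46.

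The central protuberance, which contacts the small subunit's head, had 4 of its 5 genes higher in Vascepa livers. Mrpl18 and Mrpl46 differed by 0.18 ± 0.38 and 0.25 ± 0.23 (SE). Mrpl48 and Mrpl40 differed by 0.23 ± 0.27 and 0.073 ± 0.25, and Mrpl38, given above, was the lower one. All 5 were higher on vehicle replicate 2 than on replicate 1. The sign in Mrpl18, Mrpl40 and Mrpl48 turned when Vascepa replicate 3 was left out, and in the first 2 also without vehicle replicate 1.

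Of the 5 tunnel and membrane genes tested 1 was higher and 4 lower, and Mrpl45, given above, lay farthest from zero at −0.29. Mrpl22, Mrpl23 and Mrpl24, which line the tunnel or its rim, differed by 0.10 ± 0.21, −0.0072 ± 0.28 and −0.0035 ± 0.18 (SE). Mrpl47, near the same rim, differed by −0.013 ± 0.19. Mrpl24 varied little, from 7.62 to 7.98 over the 6 arrays. Of the genes near the site of peptide bond formation, Mrpl2 differed by 0.0042 ± 0.25, Mrpl16 by −0.026 ± 0.20, Mrpl4 by −0.082 ± 0.18 and Mrpl3, the farthest from zero, by −0.20 ± 0.21.

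In the small subunit, 3 of the 5 genes along the path of the messenger RNA were higher and 2 lower in Vascepa livers, and all 4 positions of the array order held in 3 of them. Mrps5, given above, was the lower gene without overlap and did not follow the order. Mrps12, of the decoding centre, differed by −0.080 ± 0.23 (SE) and Mrps7, of the head, by 0.14 ± 0.30. Mrps11, of the platform, differed by 0.14 ± 0.24 and Mrps24, where the messenger RNA enters, by 0.26 ± 0.37. Mrps24 read 6.23, 6.90 and 6.42 in vehicle livers and 6.11, 6.67 and 7.56 in Vascepa livers. Mrps18a, the third of the Mrps18 paralogs, differed by 0.025 ± 0.33, between Mrps18b and Mrps18c. None of the genes described by place passed (limma, adjusted p from 0.976 to 0.999).

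Members were also grouped by whether their place in the ribosome has a bacterial counterpart. In the large subunit 14 of 28 genes with a counterpart were higher in Vascepa livers, with a median difference of 0.00027, and 10 of 17 without one, with a median of 0.025. In the small subunit the counts were 10 of 14, with a median of 0.14, and 4 of 10, with a median of −0.028. The swing from Vascepa replicate 1 to 3 had medians of 0.80, 0.60, 0.82 and 0.80 in these 4 classes in the same order. The classes were assigned from general knowledge of the ribosome's structure, with Mrps30 and Mrps18a counted in the large subunit and Mrps36 in none. Mrps18c was placed with the counterparts and Mrps18a and Mrps18b without, although all 3 are related to the same bacterial protein. The differences between classes were not tested.

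The most similar gene groups ran in the same array order with wider medians. Cytosolic ribosomal protein genes, which build the ribosomes of the cytosol, had medians of −0.32, 0.35 and −0.028 in vehicle livers and −0.61, 0.25 and 0.68 in Vascepa livers (49 genes). Respiratory chain and ATP synthase subunit genes of the nucleus had −0.29, 0.30 and 0.023, and −0.45, 0.22 and 0.47 (74 genes). All 4 positions held in 37 of 49 and 50 of 74, against 38 of 70 members. Between groups 39 of 49 and 47 of 74 were higher in Vascepa livers, with median differences of 0.12 and 0.087. No gene of either group passed (limma, lowest adjusted p = 0.976), and the differences between these groups and the members were not tested.

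**Figure D5:**
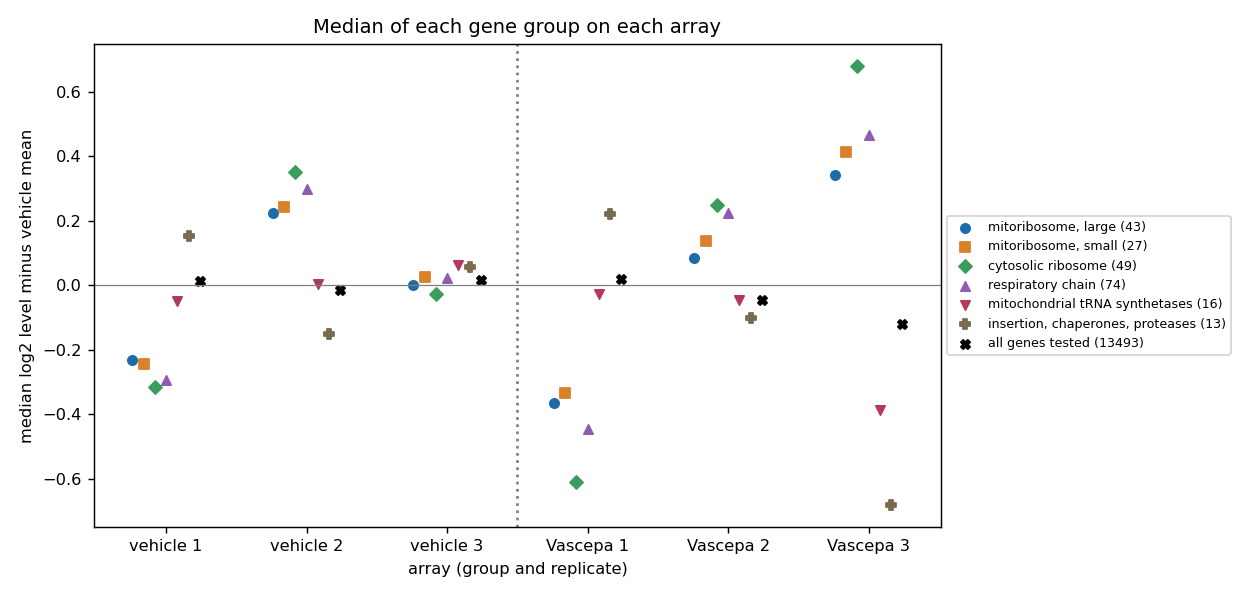
Median log2 level of each gene group on each array, relative to each gene's vehicle mean, with the number of genes in brackets. The subunits of the mitochondrial ribosome, the cytosolic ribosome and the respiratory chain are low on replicate 1 of both groups and high on vehicle replicate 2 and Vascepa replicate 3, where the insertion, chaperone and protease genes are low at −0.68.

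Genes that serve the mitochondrial ribosome without being its parts had array medians closer to zero or in another order. Ribosome assembly factors had 26 of 27 listed genes tested, 6 higher and 20 lower after Vascepa, with a median of −0.066. Mtg1 and Rpusd4, a GTPase and a pseudouridine synthase acting on ribosomal RNA, differed by −0.31 ± 0.19 and −0.32 ± 0.21 (SE). Translation factors were 5 of 11 higher, with a median of −0.0068. Tufm, the elongation factor that delivers transfer RNA, and Mtif3, an initiation factor, differed by −0.48 ± 0.30 and 0.25 ± 0.26.

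Mitochondrial transfer RNA synthetases were 5 of 16 higher, with a median of −0.17, and lay at −0.39 on Vascepa replicate 3. Fars2 and Yars2, which charge phenylalanine and tyrosine, differed by −0.27 ± 0.21 and −0.28 ± 0.23 (SE). Genes of membrane insertion, chaperones and proteases were 3 of 13 higher, with a median of −0.16. Their array medians of 0.15, −0.15 and 0.057 in vehicle livers and 0.22, −0.10 and −0.68 in Vascepa livers ran opposite to the members. Oxa1l, which inserts newly made proteins into the inner membrane, and Afg3l1, of the protease family that trims Mrpl32, differed by −0.55 ± 0.33 and −0.34 ± 0.24.

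Mitochondrial transcription and RNA handling genes were 8 of 18 higher, with a median of −0.013. Prorp, which cuts the 5′ ends of mitochondrial transfer RNAs, had an unadjusted p under 0.05 at −0.60 ± 0.25 (limma, adjusted p = 0.976), and Trmt10c, its partner, differed by 0.41 ± 0.21. Regulators of mitochondrial gene expression were 4 of 12 higher, with a median of −0.10. Myc, a transcription factor of growth, and Esrra, an orphan nuclear receptor of energy metabolism, differed by 0.39 ± 0.22 and 0.34 ± 0.21. No gene of these 6 lists passed (limma, lowest adjusted p = 0.976). Of mitochondrial ribosomal proteins with other names, Gadd45gip1, Ptcd3 and Dap3 were tested and differed by 0.34 ± 0.28, 0.59 ± 0.64 and −0.17 ± 0.22.

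Markers of other cells were examined on the same arrays. The medians of hepatocyte markers relative to the vehicle mean were −0.020, −0.097 and −0.30 on Vascepa replicates 1, 2 and 3 (15 genes). Those of Kupffer cells and macrophages, the phagocytes of the liver, were −0.49, −0.13 and −0.072 (13 genes). The summed linear level of the hepatocyte list ran from 67966 to 70847 in vehicle and from 58974 to 71114 in Vascepa livers, and that of the macrophage list from 1288 to 1472 and from 900.4 to 1602. In whole liver, fewer cells of a type and less RNA per cell cannot be told apart. On Vascepa replicate 3 the median over all genes was −0.12. The medians there were also low for endothelial (−0.39, 9 genes), stellate (−0.38, 8 genes) and bile duct markers (−0.24, 4 genes). The bile duct median was −0.21 on vehicle replicate 2 as well. Medians on Vascepa replicate 3 were high for skeletal muscle (0.33, 5 genes), pancreatic acinar (0.45, 3 genes) and neutrophil markers (0.33, 3 genes). In these lists 4 of 9, 3 of 6 and 4 of 7 genes with a probe were below the intensity level. The muscle and acinar medians were above all their vehicle medians on Vascepa replicate 1 too, at 0.16 and 0.10, where the members were lowest. On Vascepa replicate 2 they were 0.20 and 0.36. The summed linear level of the muscle list ran from 66.2 to 76.7 in vehicle and from 79.1 to 89.3 in Vascepa livers. Lymphocyte, adipocyte and erythroid markers lay at −0.063, 0.22 and −0.067 (5, 2 and 2 genes). Of the macrophage markers 2 were higher and 11 lower in Vascepa livers, and 3 of the lower ones, Vsig4, Cd68 and Timd4, had an unadjusted p under 0.05 (limma, lowest adjusted p = 0.976). Of the muscle markers 3 were higher and 2 lower, and Acta1, higher by 0.52, had an unadjusted p of 0.018 (limma, adjusted p = 0.976). The part of cell composition in the array order of the members was not tested.

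Sequence upstream of the gene start was available from RefSeq, on assembly GRCm38.p6, for 61 of the 70 tested members. It covers 250 bases before the start and 50 after it. An NRF1-type word, GCGC and TGCGC with any 1 base between them, was found on either strand in 11 of 61 members, beside 9.55% of all tested genes with a promoter. An ETS-type word, CCGGAAG, was found in 22 of 61, 36.1%, beside 16.1%. A YY1-type word, AANATGGCG, was found in 11 of 61, beside 4.68%. NRF1 and the ETS factor GABP are known regulators of nuclear genes for mitochondria. The TATA word TATAAA was found in 4 of 61, 6.56%, beside 8.13%. None of the first 3 words was found in 25 of 61, 41.0%, beside 73.2%. The words were matched letter by letter, and a match is not a site.

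The upstream sequences of some members described here are printed, read 5′ to 3′ on the gene's strand and ending at the base before the start. A link between these sequences and the array patterns was not tested. Mrpl32 had the widest swing, Mrpl46 shares its upstream stretch with another member, and Mrps31, Mrpl49 and Mrps9 were among the members with the smallest p. Where another gene starts on the opposite strand within 250 bases, only the bases between both starts are printed. Capitals mark the NRF1-type word.
Mrpl32: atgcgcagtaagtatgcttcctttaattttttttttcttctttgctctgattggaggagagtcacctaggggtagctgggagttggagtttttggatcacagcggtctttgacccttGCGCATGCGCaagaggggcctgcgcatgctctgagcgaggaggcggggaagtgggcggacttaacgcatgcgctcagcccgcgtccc
Mrpl46: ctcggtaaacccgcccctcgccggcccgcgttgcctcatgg
Mrps31: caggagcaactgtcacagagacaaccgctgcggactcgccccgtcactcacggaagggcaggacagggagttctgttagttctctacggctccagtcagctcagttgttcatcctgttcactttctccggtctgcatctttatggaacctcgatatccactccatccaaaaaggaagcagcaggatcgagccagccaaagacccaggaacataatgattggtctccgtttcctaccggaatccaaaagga
Mrpl49: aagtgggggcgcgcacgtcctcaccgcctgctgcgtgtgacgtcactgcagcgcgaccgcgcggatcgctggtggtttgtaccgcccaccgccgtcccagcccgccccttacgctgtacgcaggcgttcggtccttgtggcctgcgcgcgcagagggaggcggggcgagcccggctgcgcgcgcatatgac
Mrps9: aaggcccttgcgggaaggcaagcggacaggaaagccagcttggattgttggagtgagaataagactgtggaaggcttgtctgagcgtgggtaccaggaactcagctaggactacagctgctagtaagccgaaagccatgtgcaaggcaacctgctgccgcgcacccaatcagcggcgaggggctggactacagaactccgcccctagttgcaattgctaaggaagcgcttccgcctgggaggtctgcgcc

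The Mrpl32 stretch lies at chr13:14613038-14613241 on the minus strand, between Mrpl32 and the proteasome subunit gene Psma2, and holds 1 NRF1-type word. The Mrpl46 stretch of 41 bases lies at chr7:78783090-78783130 on the minus strand and separates Mrpl46 from Mrps11. Mrps31 is shown over chr8:22411090-22411339 and Mrps9 over chr1:42850983-42851232, both on the plus strand, and Mrpl49 over chr19:6057756-6057946 on the minus strand, up to the start of Fau. The last 4 stretches held none of the NRF1, ETS or YY1 words. Members with an NRF1-type word had a median swing of 0.80 from Vascepa replicate 1 to 3 (11 genes), and those without one 0.66 (50 genes). With and without an ETS-type word the medians were 0.81 (22 genes) and 0.61 (39 genes), and with and without a YY1-type word 0.61 (11 genes) and 0.71 (50 genes).

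Many members start head to head with a neighbour. In 23 of 61 members, 37.7%, another gene began on the opposite strand within 1000 bases upstream, beside 15.5% of all tested genes with a promoter. Among these partners 20 were tested. Mrpl46 and Mrps11, which face each other, are members of different subunits and swung alike, by 0.62 and 0.61 from Vascepa replicate 1 to 3 and by 0.53 and 0.29 from vehicle replicate 1 to 2. The 20 tested partners count Mrpl46 and Mrps11 each as the partner of the other. Their median swing from Vascepa replicate 1 to 3 was −0.25, and 7 were higher on replicate 3. Among the members beside them the median was 0.61 and 14 were higher. Over all genes tested the median was −0.11, and 5878 of 13493 were higher.

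Single pairs showed how far a member and its partner could part. Tmem63b, which faces Mrpl14 at 131 bases, differed by −1.08 from Vascepa replicate 1 to 3, while Mrpl14, a large-subunit protein with a bacterial relative, differed by 1.60. Fau, which encodes a cytosolic ribosomal protein fusion and faces Mrpl49, was higher by 1.63 where Mrpl49 differed by 0.0023. Psma2 was higher by 0.99 beside the 2.73 of Mrpl32. These pairs were chosen after their values were seen. Of the 20 partners 1 had an unadjusted p under 0.05 between groups, 2610507I01Rik beside Mrpl55, at −0.54 ± 0.23 (SE; limma, adjusted p = 0.976).

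A check on the probes was possible for 9 members with 2 probes of their own. The difference between groups had the same sign on both probes in 6 of 9. The signs differed in Mrpl10 (given above), Mrps16 (−0.059 and 0.044) and Mrps17 (0.27 and −0.24). The swing from Vascepa replicate 1 to 3 had the same sign on both probes in 8 of 9, the exception being Mrpl47, at −0.0026 and 0.097.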

How the data were processed

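Liver RNA of 6 samples, 3 in each group, was hybridised as biotin-labelled target to Affymetrix arrays, per the labels' protocols. The authors deposited log2 expression values for 41345 probes, made with Affymetrix Expression Console and RMA per the submitters' processing notes (versions and genome build: not given in the sources used here). That method background-corrects, quantile-normalizes and summarises probes, and it compresses differences at the dim end. The number of arrays limits the precision. Gene names came from the platform annotation: 23521 probes had 1 symbol, 1814 several and 16010 none. Members and lists were chosen with earlier results of these data known, and no list was tested. The fit was limma 3.58.1 in R 4.3.3 (lmFit, eBayes) over 13493 genes, with Benjamini-Hochberg adjustment over all of them and a threshold of 0.05. It was also run on simulated data in which each gene varied independently. Those data lack the array shifts that genes share here, so they do not show how the fit handles them. Named members were the 6 with the smallest p in each subunit, genes of fixed structural roles, and the extremes; in other lists, the 2 with the smallest p. For ribosomal proteins with other names, all 3 tested are given. Alternatives covered the intensity filter, normalization, probe choice, symbols, variance prior, array weights, replicate block, small nucleolar RNA level and each array left out. Scan dates were not among the sources used here, and no batch was tested.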

Additional observations from a re-analysis of the deposited data

How the results depend on the processing

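The sign of the group difference was followed under the alternatives for 35 members, and 13 of them kept it in every run. Mrpl14, Mrps16 and Mrps17, named above for their swing or their probes, were not among the 35. No member passed under any alternative except array weights, where 4100 genes and 10 members had an adjusted p under 0.05, with a weight of 39.5 on Vascepa replicate 2 against 0.18 to 2.33 on the others. At an unadjusted p under 0.05 there were 21 members with array weights, 5 with the small nucleolar RNA covariate, 1 after centring and 0 to 8 with single arrays left out. Over all genes 362 had such a p, against 757 without the intensity filter, 106 with the 75th percentile filter, 5902 with array weights, 816 with the covariate and 141 to 2018 with single arrays left out. The covariate gave 2 genes at an adjusted p under 0.05, none of them members, and left 9 members higher. Leaving out single arrays gave 12 to 54 members higher, medians of −0.13 to 0.25 in the large and −0.14 to 0.24 in the small subunit, and a gap between them of −0.034 to 0.017. The gap was −0.057 with array weights and −0.049 with genes placed by structure. Same-numbered arrays of the groups correlated at 0.61, 0.11 and −0.13 in their deviations, so the numbers were not taken as a pairing; with the replicate block 438 genes and 0 members had an unadjusted p under 0.05, 0 genes passed, and the gap stayed at −0.029.

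Differences turned sign with array weights in Mrps18b (0.11), Mrpl23 (0.074), Mrpl24 (0.14), Mrpl47 (0.10), Mrpl3 (0.022), Mrpl4 (0.056) and Mrpl32 (0.11). Renewed quantile normalization turned Mrpl23 (0.12), Mrpl24 (0.047), Mrpl47 (0.074), Mrpl4 (0.041), Mrpl16 (0.063), Mrps12 (0.038) and Mrpl32 (0.0024). Centring turned Mrpl11 (−0.060), Mrpl40 (−0.0032), Mrpl2 (−0.072) and Mrps18a (−0.051), and the mean of all probes turned Mrpl10 (0.035). The covariate turned Mrpl11 (−0.36), Mrpl12 (−0.12), Mrpl22 (−0.010), Mrpl18 (−0.17), Mrpl40 (−0.12), Mrpl2 (−0.19), Mrps7 (−0.10), Mrps11 (−0.017), Mrps24 (−0.081), Mrps18a (−0.27) and Mrpl54 (−0.20). With single arrays left out, sign turned within −0.37 to 0.41 in Mrpl11, −0.079 to 0.70 in Mrpl12, −0.072 to 0.26 in Mrpl22, −0.27 to 0.27 in Mrpl23, −0.073 to 0.11 in Mrpl24, −0.098 to 0.11 in Mrpl47 and −0.12 to 0.52 in Mrpl18. It also turned within −0.069 to 0.25 in Mrpl40, −0.031 to 0.47 in Mrpl48, −0.14 to 0.19 in Mrpl2, −0.16 to 0.078 in Mrpl16, −0.11 to 0.35 in Mrps7, −0.26 to 0.072 in Mrps12, −0.13 to 0.60 in Mrps24, −0.21 to 0.35 in Mrps18a, −0.74 to 0.63 in Mrpl32 and −0.23 to 0.81 in Mrpl54. The cause was not tested in any of these.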

Other observations

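The 7 mitochondrial ribosomal protein genes named only on probes with another gene's symbol lay on 9 probes, whose values cannot be given to one gene. From vehicle to Vascepa livers 6 of the 9 probes were higher and 3 lower, between −0.31 and 0.35 on the log2 scale. The probe naming Mrpl53 before Ccdc142 read 7.33, 8.48 and 7.78 in vehicle livers and 7.05, 8.40 and 9.16 in Vascepa livers. The probe naming Mrpl41 and Dph7 read 4.79, 5.57 and 5.06 against 4.38, 5.81 and 6.29. From Vascepa replicate 1 to 3, 7 of the 9 probes were higher on replicate 3. The probe naming Babam2 before Mrpl33 went the other way, at 6.54, 6.26 and 6.51 against 6.56, 6.17 and 5.64. These probes were chosen after their values were seen.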
